A study of Mus musculus with 3 samples.

Results

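MERVL is an endogenous retrovirus of the mouse whose long terminal repeat (LTR), called MT2, holds its promoter. The loci described here were the autosomal stretches of the mm10 genome that matched the MT2-MERVL amplicon, a bisulfite PCR product designed by the study, by blastn at 90% identity or more over at least 90% of the amplicon's length. Converted cytosines were first restored in the amplicon sequence. There were 1725 such matches on 19 autosomes, among 21867550 CpG sites of the chromosomes, and 134 more lay on chromosomes X and Y. A match was called paired when a second match lay on the same strand with its start 4 to 8 kb away, and solitary otherwise. This gave 515 pairs (1030 matches) and 695 solitary matches. The rule used sequence only and no methylation value.

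The methylomes came from whole-genome bisulfite sequencing (PBAT) of purified spermatogonia of C57BL/6J mice at postnatal day 7. Wild-type (WT) cells were compared with cells lacking *Pld6*, which acts in piRNA production, or *Dnmt3l*, a cofactor of *de novo* DNA methylation. The study's WT category took in *Pld6*+/+, *Pld6*+/- and *Dnmt3l*+/- mice, and the labels do not say which of these gave the WT library. The study had further biological replicates of each category, which were not analysed here. Each genotype was represented by 1 library, so no test between genotypes was possible, and every p-value below compares the calls of libraries or of stretches within a library. Cells were sorted with an antibody to EpCAM, a surface protein that is not specific to germ cells.

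An LTR retrovirus inserts as a provirus with an identical LTR at each end, the 5′ LTR starting transcription and the 3′ LTR ending it. Recombination between the LTRs removes the body and leaves a solitary LTR. MERVL is known for its transcription in the cleavage-stage embryo, where its LTRs also serve as promoters of host genes. In male germ cells DNA methylation is erased in primordial germ cells and laid down again in prospermatogonia, in part with guidance from piRNAs.

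The first 284 bases of the amplicon are shown with the most common base of the matches at each position, because they carry most of the CpG sites on which the levels rest. Position 314, a CpG in 8.64% of matches, lies outside them and gave 195 WT calls. Capitals mark positions 27, 60, 179, 192, 239 and 269, counted from 1 at the 5′ end of the amplicon, each with the base that follows.
MT2-MERVL amplicon: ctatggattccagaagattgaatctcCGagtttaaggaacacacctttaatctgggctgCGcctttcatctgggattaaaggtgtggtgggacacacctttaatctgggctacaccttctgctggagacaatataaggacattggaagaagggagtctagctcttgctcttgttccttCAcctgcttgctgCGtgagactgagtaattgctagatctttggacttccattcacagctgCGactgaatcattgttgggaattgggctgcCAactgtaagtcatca
most common bases of the matches: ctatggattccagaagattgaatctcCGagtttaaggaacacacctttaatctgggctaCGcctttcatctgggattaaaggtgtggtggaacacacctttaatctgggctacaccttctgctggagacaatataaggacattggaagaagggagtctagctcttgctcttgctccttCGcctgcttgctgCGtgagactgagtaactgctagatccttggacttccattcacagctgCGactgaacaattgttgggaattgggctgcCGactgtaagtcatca
The amplicon itself has a CpG at 27, 60, 192 and 239. At 10 of its 388 positions the most common base of the matches was another one. Of these substitutions A180G and A270G gave most matches a further CpG, at 179 in 1404 matches (81.4%) and at 269 in 1604 (93.0%).

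The amplicon did not cover the whole LTR. In 514 of 515 pairs the homology of the paired matches ran on upstream, by 142 bp at the median, and 3′ matches most often ended at amplicon position 351, so the LTR measured 493 bp. The remaining 37 bases of the amplicon lie in the body of the provirus, which includes the site where a tRNA primes reverse transcription. They are shown in capitals, because they tell 5′ from 3′ matches.
MT2-MERVL amplicon, last stretch: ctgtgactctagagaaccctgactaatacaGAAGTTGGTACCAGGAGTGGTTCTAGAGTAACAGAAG
Of the 515 5′ matches, 511 (99.2%) ran at least 10 bases past the LTR end, against 4 (0.777%) of the 3′ matches and 105 (15.1%) of the solitary ones. Pair members started 5909 bp apart at the median (4091 to 7869), and 475 pairs (92.2%) lay within 200 bp of that distance. Identity to the amplicon ran from 90.03% to 98.0% with a median of 95.4%. Within a pair the matches were nearly alike: 412 pairs (80%) were identical over the LTR part of the amplicon, and the lowest identity was 94.3%. Among the solitary matches, 147 (21.2%) still had sequence like the proviral body beside them, 75 downstream and 72 upstream.

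The matches differed in which CpGs they carried, and solitary matches differed from paired ones. A match held 5.28 CpGs on average (SD 1.15, n = 1725 matches), 4.99 in solitary and 5.47 in both 5′ and 3′ matches. Position 27 was a CpG in 80.6% of solitary but 95.1% of 5′ and 95.3% of 3′ matches. Position 192 was a CpG in 68.5% of solitary and 86.2% of 5′ matches. At position 239 the order was the other way, with 83.3% of solitary and 76.5% of 5′ matches. Position 60 was a CpG in only 35.0% of all matches. There the pairs mostly carried TG (54.6% of 5′ matches) while in solitary matches CA was the most frequent (38.6%), narrowly ahead of CG (34.8%). TG and CA are the dinucleotides that arise from deamination of a methylated CpG on one strand or the other.

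The libraries held 43757722 (WT), 64076569 (*Pld6* KO) and 19289688 (*Dnmt3l* KO) CpG calls, or 2.0, 2.92 and 0.879 calls per reference CpG. Over all autosomal CpGs 69.3%, 77.3% and 49.7% had a call and the pooled level was 0.704, 0.724 and 0.303. In the *Pld6* KO library 42 consecutive CpGs of *Pld6* (chr11:59787155-59787639, located by their lack of calls) had no call, against 104 calls in WT and 48 in *Dnmt3l* KO. Likewise 53 CpGs of *Dnmt3l* (chr10:78050450-78054524) had no call in its own knockout, against 88 in WT and 171 in *Pld6* KO. *Kcnq1ot1*, *Snrpn*, *Mest* and *Peg3* have regions that are methylated on the maternal allele in somatic cells and unmethylated in male germ cells. Within 500 bp of their annotated starts the pooled level was 0.156 in WT (307 calls), 0.178 in the *Pld6* KO (478) and 0.0345 in the *Dnmt3l* KO (116). The start used was the outermost one of each gene's annotation. Whether it lay in the methylated region was not checked, so the pooled level may mix in other sequence. Since somatic cells carry methylation on 1 allele in such maternally methylated regions, these are commonly used to look for somatic cells in germ cell preparations. The libraries differed in the pooled level at these starts, and the part of somatic cells in the results below was not tested. The study made its own purity check by bisulfite PCR at the *Lit1* region, and those PCR data were not analysed here.

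Of the 9101 CpG sites inside the matches, 9.74% had a call in WT, 11.1% in the *Pld6* KO and 7.36% in the *Dnmt3l* KO. Solitary matches were read more often than paired ones, with 20.1% of their sites covered in WT against 3.37%. In pairs with identical matches 1.24% of sites had a call in WT, against 12.6% in the 103 pairs whose matches differed. Of the 457 WT calls in paired matches, 323 came from pairs that differ.

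MERVL LTRs were highly methylated in the WT and *Pld6* KO libraries and far less so in the *Dnmt3l* KO library. The level inside the matches was 0.832 in WT (95% Wilson interval 0.816 to 0.847, 2169 calls). It was 0.799 in the *Pld6* KO (0.785 to 0.813, 3126 calls) and 0.30 in the *Dnmt3l* KO (0.274 to 0.328, 1132 calls). The *Dnmt3l* KO library was lower than WT by 0.532 (interval 0.50 to 0.562), with an adjusted p of 1.38e-202 by two-sided Fisher's exact test on calls, adjusted over the 20 tests made. The decrease was seen on 19 of 19 autosomes, from 0.407 on chromosome 3 to 0.737 on chromosome 10. The *Pld6* KO library was lower by 0.0328 (0.0115 to 0.0536, adjusted p = 0.00582 by the same Fisher's exact test). That small difference was positive on 11 of 19 autosomes and no longer passed the test among the fewer matches of at least 95% identity (0.0246, p = 0.147, Fisher's exact test) or of at least 97% extent (0.0428, p = 0.155), although the latter difference was larger. A match of 97% extent must run past the LTR end into the proviral body. Only 4 of the 3′ and 105 of the solitary matches ran at least 10 bases past it, so this limit also changed the kind of match. Intervals cover counting error only, and calls on the same read are not independent, so these p-values can be too small.

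The rest of the LTR gave much the same picture. In the 142 bp upstream of the matches the level was 0.844 in WT (544 calls), 0.804 in the *Pld6* KO (759) and 0.30 in the *Dnmt3l* KO (267).

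**Figure D1:**
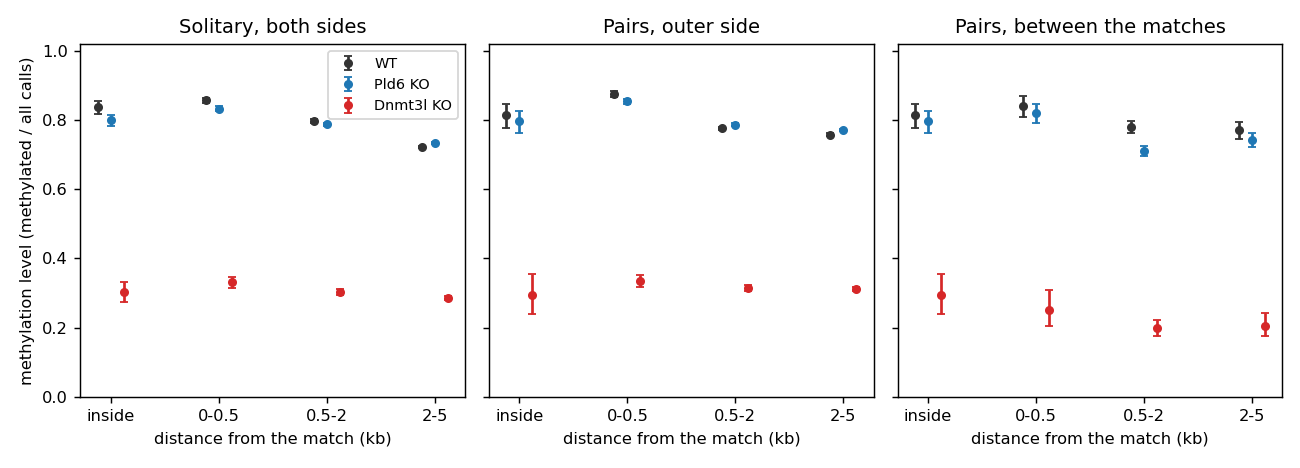
Methylation level (methylated over all calls, 0 to 1) inside the matches and in 3 distance zones in kb, for solitary matches, the outer sides of pairs and the stretch between paired matches, in WT, *Pld6* KO and *Dnmt3l* KO. Points are pooled levels and bars are 95% Wilson intervals. Beside solitary matches WT and *Pld6* KO fall from 0.857 and 0.833 within 0.5 kb to 0.722 and 0.734 at 2 to 5 kb. Between paired matches *Pld6* KO has 0.821, 0.711 and 0.743 in the 3 zones. *Dnmt3l* KO lies lower throughout.

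Methylation around the matches was highest close to the LTR and fell with distance in WT and *Pld6* KO. Within 0.5 kb the level was 0.865 in WT, 0.842 in the *Pld6* KO and 0.329 in the *Dnmt3l* KO. At 0.5 to 2 kb it was 0.787, 0.783 and 0.303, and at 2 to 5 kb 0.739, 0.751 and 0.296. The inside of the matches exceeded the 2 to 5 kb flank by 0.0934 in WT (0.0769 to 0.109, adjusted p = 4.92e-24, Fisher's exact test) and by 0.0485 in *Pld6* KO (0.0340 to 0.0624, adjusted p = 7.42e-10). In *Dnmt3l* KO the difference was 0.00395 with an interval of -0.0224 to 0.0316 (adjusted p = 0.861, Fisher's exact test). The inside was above the outer 2 to 5 kb flank on 15 of 19 autosomes in WT, 13 in *Pld6* KO, 8 in *Dnmt3l* KO. Among matches of at least 97% extent, which leave out nearly all 3′ matches, the *Pld6* KO difference was 0.00845 (p = 0.729, Fisher's exact test). Averaging the levels of single matches with at least 3 calls gave differences of 0.0406 in WT and 0.0227 in *Pld6* KO.

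**Figure D2:**
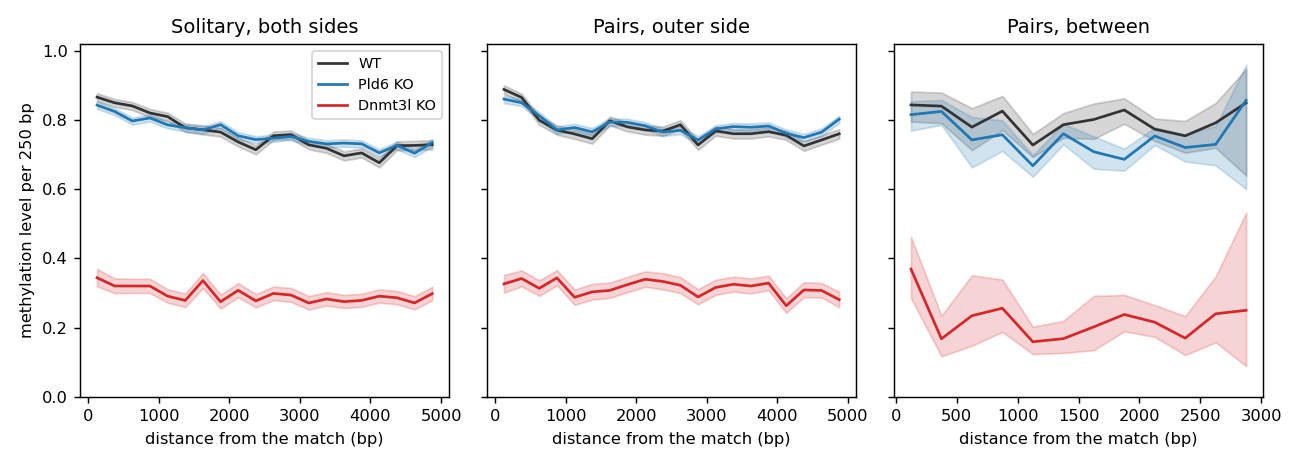
Methylation level in 250 bp bins against distance from the match (bp) for solitary matches, the outer sides of pairs and the stretch between paired matches. Lines are pooled levels and bands 95% Wilson intervals; beside solitary matches the WT line starts at 0.866 in the first bin and ends at 0.729 in the last, while the *Dnmt3l* KO line runs from 0.344 to 0.298.

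The flank immediately outside the LTR was not lower than the LTR itself. Upstream, between the LTR end and 0.5 kb, the level was 0.862 in WT, 0.847 in the *Pld6* KO and 0.308 in the *Dnmt3l* KO, and downstream to 0.5 kb it was 0.868, 0.842 and 0.346. Around solitary matches WT fell from 0.857 within 0.5 kb to 0.722 at 2 to 5 kb, and on the outer sides of pairs from 0.875 to 0.758.

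The body of the provirus, read between paired matches, had a lower pooled level in *Dnmt3l* KO than the outer flanks in the same distance zone. At 0.5 to 2 kb the level between the matches was 0.781 in WT (2219 calls), 0.711 in the *Pld6* KO (3367) and 0.198 in the *Dnmt3l* KO (1113). The outer sides of the same pairs had 0.776, 0.786 and 0.314. At 2 to 5 kb the level between the matches was 0.771, 0.743 and 0.206, against 0.758, 0.771 and 0.312 outside. These 2 zones do not span the same distances. A site belonged to its nearest match, so between the matches only 116 sites lay at 2750 to 3000 bp and few lay farther, while outside the zone ran to 5 kb. The 2 ends differed at 0.5 to 2 kb. There *Dnmt3l* KO had 0.279 between and 0.295 outside beside 5′ matches, but 0.142 and 0.335 beside 3′ matches. WT had 0.856 between the matches beside 5′ matches and 0.727 beside 3′ matches. At 2 to 5 kb *Dnmt3l* KO had 0.211 and 0.299 beside 5′ matches, and 0.203 and 0.323 beside 3′ matches. Only 4.80% of the sites between the matches at 0.5 to 2 kb had a call in WT, against 66.6% outside, so the body is known from a small share of its sites. These contrasts were not tested.

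No difference between solitary and paired matches was detected. Paired minus solitary was -0.0230 in WT (interval -0.0648 to 0.0147, adjusted p = 0.346), -0.00305 in the *Pld6* KO (-0.0405 to 0.0314, adjusted p = 0.864) and -0.00912 in the *Dnmt3l* KO (-0.0720 to 0.0590, adjusted p = 0.861), all by Fisher's exact test. The intervals leave room for differences of several hundredths. Over sites with at least 3 calls the *Dnmt3l* KO difference was -0.109 and just passed the threshold (unadjusted p = 0.0454, Fisher's exact test). The 5′ match of a pair was read at 0.773 in WT (172 calls), 0.764 in the *Pld6* KO (242) and 0.250 in the *Dnmt3l* KO (96). The 3′ match had 0.839 (285 calls), 0.819 (349) and 0.324 (136). 5′ minus 3′ was thus -0.0653, -0.0550 and -0.0735 in these libraries, but none of the 3 differences passed the test (adjusted p = 0.153, 0.198 and 0.346, Fisher's exact test). The WT value rested on 1 match, chr4:90321434-90321821, which held 26 of the 172 calls. Without it the 5′ matches had 0.842 in WT (146 calls), 5′ minus 3′ was 0.00387, and paired minus solitary in WT was 0.00287. The 5′ and 3′ matches were also read at different positions. In 3′ matches position 314 gave 106 of the 285 calls in WT, 101 of 349 in *Pld6* KO and 44 of 136 in *Dnmt3l* KO. Of these calls 96, 96 and 17 were methylated, shares above the level of all 3′ calls. In 5′ matches the position gave only 5, 9 and 3 calls. Its part in the 5′ minus 3′ differences was not tested.

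Levels along the LTR spanned a narrow range in WT and a wide one in *Dnmt3l* KO. Among the 5 positions that were a CpG in most matches, WT ranged from 0.829 at 269 to 0.878 at 179, and *Pld6* KO from 0.785 at 192 to 0.862 at 27. In *Dnmt3l* KO the level was 0.341 at position 27 (129 calls), 0.513 at 179 (156), 0.318 at 192 (157), 0.219 at 239 (183) and 0.149 at 269 (148). The interval at 179 (0.435 to 0.590) did not overlap that at 269 (0.100 to 0.215). Where one match was read at both sites of a pair of positions, the order was the same in 9 of the 10 pairs of these positions and turned between 27 and 192 (0.286 over 7 calls and 0.308 over 13 calls). In *Dnmt3l* KO 22 matches read at 179 and 239 had 0.543 (35 calls) and 0.154 (39 calls), and 60 matches read at 239 and 269 had 0.250 (112 calls) and 0.156 (96 calls). These positions were singled out after their values were seen, and no test was made. Position 60, kept as a CpG by a minority of matches, had 0.746 in WT, 0.682 in the *Pld6* KO and 0.362 in the *Dnmt3l* KO.

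**Figure D3:**
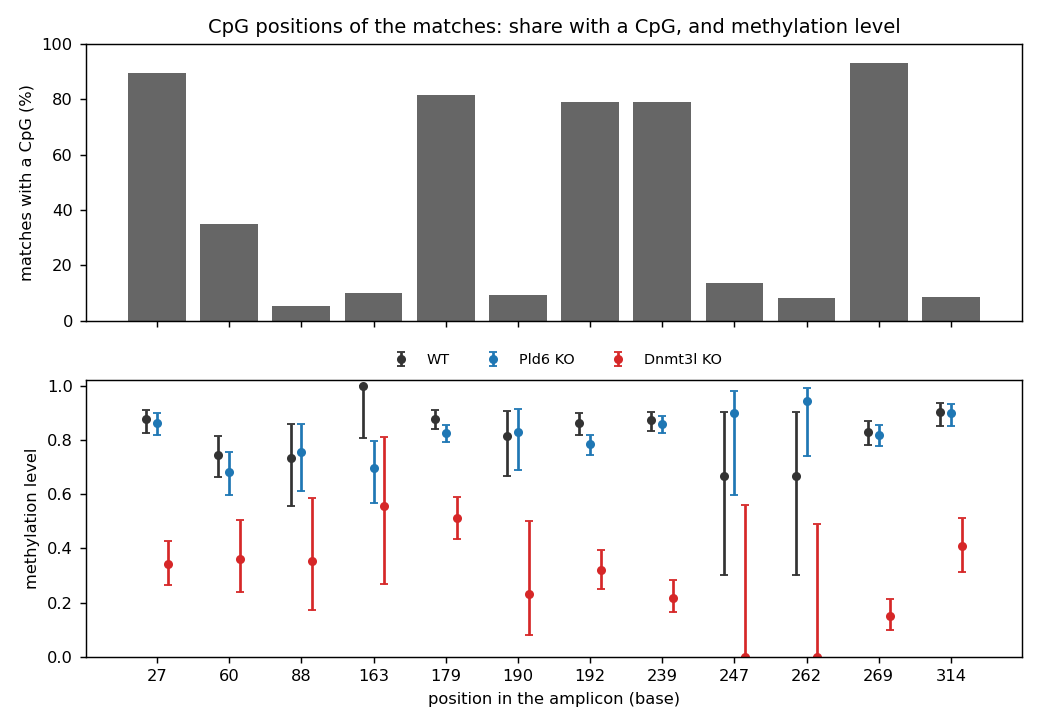
Top, share of the 1725 matches (%) that have a CpG at each amplicon position where at least 5% do; bottom, methylation level there in the 3 libraries with 95% Wilson intervals. In *Dnmt3l* KO the level falls from 0.513 at position 179 to 0.149 at 269, while WT stays at 0.829 or above at the 5 positions kept by most matches.

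Single matches followed the pooled levels. A call was present in 468 matches in WT, 503 in the *Pld6* KO and 381 in the *Dnmt3l* KO. Of the matches with at least 3 calls, 144 of 290 in WT and 129 of 340 in *Pld6* KO were methylated in every call, against 3 of 149 in *Dnmt3l* KO. Matches without a methylated call numbered 4, 5 and 53. Covered matches had a median of 3, 5 and 2 calls. With so few calls these counts depend on depth and do not show that a copy was fully methylated or unmethylated.

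**Figure D4:**
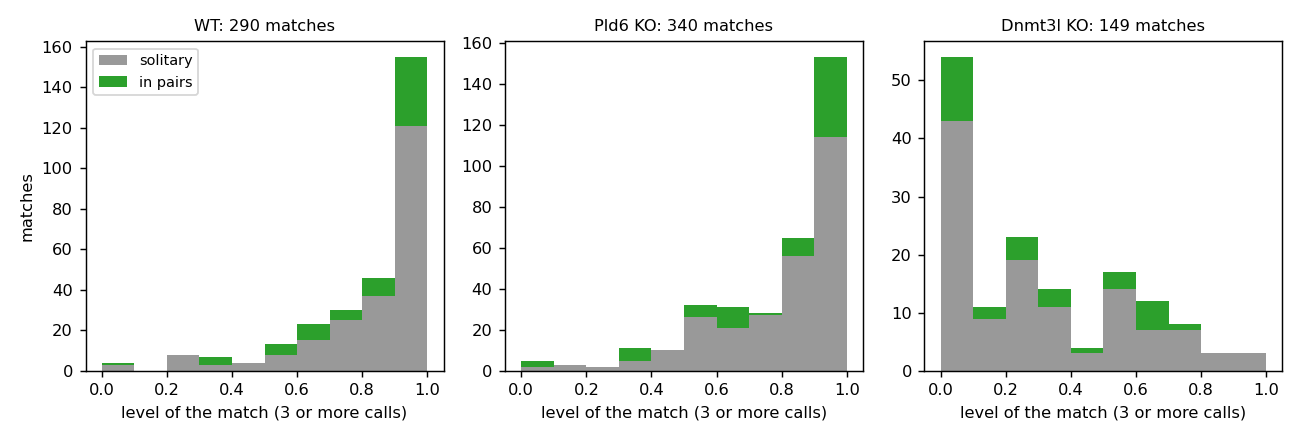
Number of matches by their methylation level, for matches with at least 3 calls (290 in WT, 340 in *Pld6* KO, 149 in *Dnmt3l* KO), with solitary matches in grey and paired ones in green. WT and *Pld6* KO pile up near full methylation, and *Dnmt3l* KO near 0 with a median of 0.25. Levels of single matches rest on few calls and differ in depth between libraries.

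A decrease of at least 0.3 from WT was counted in matches with at least 10 calls in both libraries. In *Pld6* KO it was met by 0 of 36 matches (0%, upper Wilson bound 9.64%), against 2.6% of all 400 bp autosomal windows with as many calls. Of those 36 matches 13 were lower than in WT, 20 higher (2 of them by at least 0.3) and 3 equal. In *Dnmt3l* KO it was met by 5 of 8 matches (62.5%, interval 30.6% to 86.3%), against 58.7% of windows, and all 8 were lower. Both shares were near the background at this depth, where few matches could be counted. With at least 5 calls in both, the counts were 14 of 126 in *Pld6* KO against 4.46% of windows, and 36 of 43 in *Dnmt3l* KO against 66% of windows. With 200 bp added on each side and at least 10 calls, they were 10 of 177 in *Pld6* KO against 2.22% of 800 bp windows, and 33 of 41 in *Dnmt3l* KO against 67.1%. In these larger sets the share of matches lay above that of the windows in both knockouts, a contrast that was not tested.

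The best-read copies show how far single loci varied. The solitary match at chr9:106493109-106493495, outside annotated genes, had 19 of 23 calls methylated in WT, 15 of 15 in the *Pld6* KO and 9 of 16 in the *Dnmt3l* KO. The solitary match at chr1:56999042-56999387 lies in *9130024F11Rik* and touches an exon of *Gm23943*. It had 10 of 12, 16 of 17 and 9 of 12 calls methylated, the highest *Dnmt3l* KO level (0.75) among matches with 10 calls there and in WT. These 2 matches kept more methylation in *Dnmt3l* KO than the pooled level of 0.30. The first 284 bases of each are shown in the orientation of the LTR with every CpG in capitals.
chr9:106493109-106493392, plus strand: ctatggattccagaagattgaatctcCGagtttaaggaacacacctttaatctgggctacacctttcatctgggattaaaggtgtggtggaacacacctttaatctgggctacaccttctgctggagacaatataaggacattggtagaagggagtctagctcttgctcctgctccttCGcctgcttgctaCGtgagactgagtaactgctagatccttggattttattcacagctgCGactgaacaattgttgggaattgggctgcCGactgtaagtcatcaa
chr1:56999104-56999387, minus strand: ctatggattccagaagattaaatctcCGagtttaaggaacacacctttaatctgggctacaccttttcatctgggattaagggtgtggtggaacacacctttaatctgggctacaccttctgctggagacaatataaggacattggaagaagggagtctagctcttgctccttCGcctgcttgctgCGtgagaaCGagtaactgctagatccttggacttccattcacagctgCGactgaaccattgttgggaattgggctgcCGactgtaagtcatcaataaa
The 5′ match at chr9:122334533-122334920, outside genes, went the other way, with 14 of 16 calls methylated in WT, 26 of 29 in the *Pld6* KO and 0 of 10 in the *Dnmt3l* KO (upper Wilson bound 0.278). It carries a CpG at all 6 marked positions.
chr9:122334637-122334920, minus strand: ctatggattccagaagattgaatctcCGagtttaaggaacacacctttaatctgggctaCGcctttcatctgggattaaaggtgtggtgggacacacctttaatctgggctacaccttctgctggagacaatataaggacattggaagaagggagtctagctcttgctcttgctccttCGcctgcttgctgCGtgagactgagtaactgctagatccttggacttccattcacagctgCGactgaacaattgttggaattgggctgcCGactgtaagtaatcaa
The 5′ match at chr4:90321434-90321821 was poorly methylated already in WT, with 10 of 26 calls, against 8 of 12 in the *Pld6* KO and 3 of 11 in the *Dnmt3l* KO. The solitary match at chr6:9859195-9859545 was similar, with 5 of 13, 8 of 18 and 1 of 12 calls. The solitary match at chr2:6197369-6197713 lies within *Echdc3* and *A230108P19Rik*, without touching an exon. It had 10 of 23 calls methylated in WT, 20 of 22 in the *Pld6* KO and 1 of 10 in the *Dnmt3l* KO. The other well-read paired matches were lower in *Dnmt3l* KO than in WT as well. The 5′ match at chr14:110101955-110102341 had 6 of 10 calls methylated in WT, 6 of 10 in the *Pld6* KO and 2 of 12 in the *Dnmt3l* KO, in surroundings that were also low in WT (0.375 at 2 to 5 kb, 24 calls). The 3′ match at chr7:11176033-11176384 had 9 of 10, 9 of 9 and 1 of 8 calls methylated, and that at chr1:107799984-107800340 had 5 of 7, 6 of 6 and 2 of 6.

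The largest decreases in *Pld6* KO among matches with 10 calls in both libraries were all below 0.3. They were in solitary matches, as were 31 of the 36 matches read this deeply. The match at chr3:16411607-16411968, outside genes, went from 18 of 23 calls in WT to 27 of 47. The match at chr17:20709110-20709459 went from 9 of 11 to 10 of 16, and that at chr17:53374354-53374744 from 14 of 16 to 20 of 29, with 4 of 11 left in *Dnmt3l* KO. A match in *Pde8b* that touches an exon of *Gm16243*, at chr13:95207958-95208283, went from 12 of 12 to 14 of 17. The match at chr8:61918296-61918647 in *4930512H18Rik* went from 10 of 10 to 19 of 23. The Wilson intervals of WT and *Pld6* KO overlapped in each of these 5 matches.

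MERVL matches within protein-coding genes had a higher level in *Dnmt3l* KO than those outside genes, a contrast that was not tested. The 518 matches (30.0%) that overlapped a protein-coding gene had 0.847 in WT (516 calls), 0.826 in the *Pld6* KO (729) and 0.382 in the *Dnmt3l* KO (246 calls, interval 0.324 to 0.444). The 1033 matches outside every annotated gene had 0.830 (1429 calls), 0.785 (2141) and 0.263 (779 calls, interval 0.233 to 0.295). In 130 matches an annotated transcript started inside the match on the same strand, and only 1 match held an antisense start. Levels in those 130 were 0.883 in WT (188 calls), 0.854 in the *Pld6* KO (205) and 0.413 in the *Dnmt3l* KO (75). The surrounding base composition moved with the *Dnmt3l* KO level too, with 0.242, 0.337 and 0.356 in matches of low, middle and high GC within 10 kb, and its part in the contrast of genes was not tested.

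Some genes known for transcription in the 2-cell embryo lay near a match. Of 27 such genes listed, 7 (25.9%) had a match within 10 kb of their start, against 1.23% of the 51229 annotated autosomal genes. The list was drawn up from genes known for this activity and holds families of near-identical copies, and no test was made. The 7 were *Zscan4b*, *Zscan4d*, *Zscan4e*, *Usp17lc*, *Usp17ld*, *Arg2* and *Pramef25*. Few calls fell in their matches. The match 8555 bp from *Pramef25* had 1 of 3 calls methylated in WT, 9 of 13 in the *Pld6* KO and 1 of 4 in the *Dnmt3l* KO. At *Arg2*, which encodes an arginase, the match lay 1344 bp from the start and had no call, and the start itself was unmethylated in every library, with a level of 0.0159 in WT (126 calls) and 0.0229 in *Pld6* KO (218). The starts of *Zscan4d*, a telomere regulator, and *Usp17lc*, a deubiquitinase, had 0.571 (7 calls) and 0.857 (14) in WT, 0.95 (20) and 1.0 (11) in *Pld6* KO, and 0.167 (6) and 0 (4) in *Dnmt3l* KO.

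In *Pld6* KO the MERVL matches were more methylated than those of 3 other LTR families of the study. Matches to the IAPLTR1_MM, RLTRETN_Mm and RLTR10C-MMERVK10C amplicons, found by the same rule, numbered 1398, 354 and 246. These 3 were picked as the study's other LTR amplicons with most calls, so the choice used these data. In *Pld6* KO MERVL exceeded IAPLTR1_MM by 0.124 (0.103 to 0.146, adjusted p = 1.00e-28), RLTRETN_Mm by 0.402 (0.384 to 0.419, with a p too small for the software to hold) and RLTR10C-MMERVK10C by 0.0723 (0.0481 to 0.0969, adjusted p = 1.09e-08), by Fisher's exact test. In WT MERVL differed from RLTRETN_Mm by 0.0403 (adjusted p = 3.26e-04, Fisher's exact test) and not detectably from IAPLTR1_MM (-0.0174, interval -0.0410 to 0.00674) or RLTR10C-MMERVK10C (-0.00690, -0.0315 to 0.0184). In *Dnmt3l* KO MERVL was above IAPLTR1_MM by 0.0525 (adjusted p = 0.0234) and RLTRETN_Mm by 0.169 (adjusted p = 1.12e-31), and its difference from RLTR10C-MMERVK10C was -0.00573 (adjusted p = 0.861), again by Fisher's exact test. The decrease from WT to *Pld6* KO was 0.0328 inside MERVL matches, 0.175 inside IAPLTR1_MM, 0.394 inside RLTRETN_Mm and 0.112 inside RLTR10C-MMERVK10C. The test of these decreases against each other was not made. The surroundings differed too. At 2 to 5 kb the *Pld6* KO level was 0.751 for MERVL, 0.697 for IAPLTR1_MM, 0.727 for RLTRETN_Mm and 0.659 for RLTR10C-MMERVK10C, so the gap to RLTR10C-MMERVK10C was no smaller there than inside. In *Dnmt3l* KO the same flanks had 0.296, 0.177, 0.227 and 0.178, a wider gap to IAPLTR1_MM than inside. The part of the surroundings in the differences inside was not tested.

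**Figure D5:**
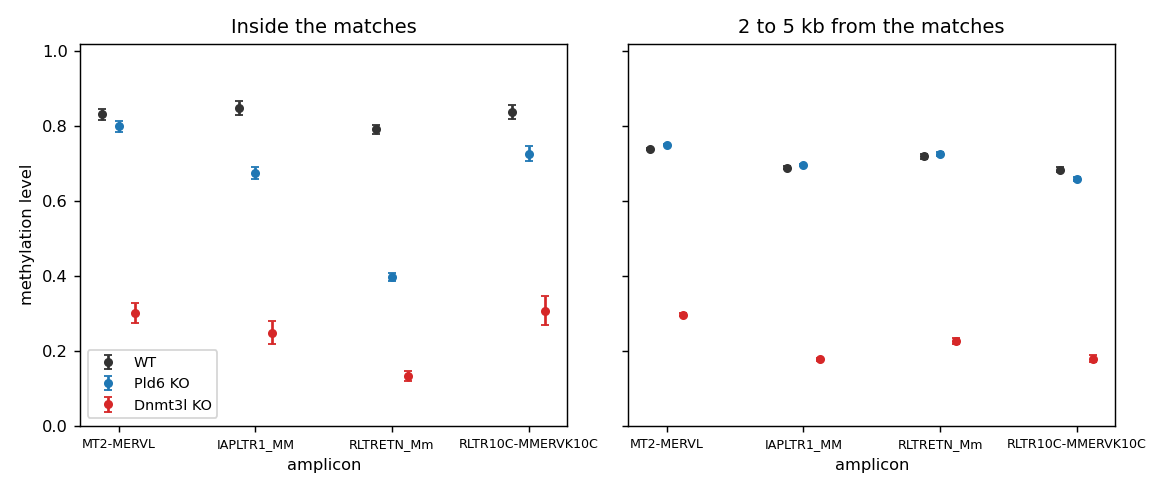
Methylation level inside the matches to 4 LTR amplicons and 2 to 5 kb from them, in WT, *Pld6* KO and *Dnmt3l* KO; points are pooled levels and bars 95% Wilson intervals. In *Pld6* KO the MT2-MERVL matches have 0.799 and the RLTRETN_Mm matches 0.398.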

How the data were processed

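Per the labels and the study's methods, the authors aligned PBAT reads of 3 libraries to mm10 with Bismark (version not given in the sources used here) and kept uniquely mapped reads. The deposited tables give, per CpG, the methylation level as a fraction and the counts of methylated and unmethylated calls as the authors made them. Only the counts were used here. The deposited sites on chromosomes all lie at a CpG of GRCm38. Matches came from blastn 2.17.0, annotation from GENCODE. Levels are pooled methylated over all calls with 95% Wilson intervals; differences have Newcombe intervals and two-sided Fisher's exact tests (scipy 1.17.1) with Benjamini-Hochberg adjustment over 20 tests. A flank site belonged to its nearest match. The intervals and Fisher's exact test were also run on simulated calls drawn independently at fixed levels. That simulation leaves out the linkage of calls on a read, so it cannot show how far real p-values are too small.

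Depth was 43757722, 64076569 and 19289688 calls. Groups came from the labels, with 1 library each. Named matches were the 5 solitary and 5 paired ones with most calls in their shallowest library, the 5 largest decreases in *Pld6* KO and the 3 highest *Dnmt3l* KO levels at 10 or more calls; genes were named within 5 kb of these or, for listed 2-cell genes, within 10 kb of a match. Host genes that hold a named match and the positions compared along the LTR were named beyond that rule. Members, lists and tests were chosen with earlier results of these data known. Alternatives changed identity, extent, coverage limits, pairing, chromosomes and averaging.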

Additional observations from a re-analysis of the deposited data

How the results depend on the processing

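The decrease from WT to *Dnmt3l* KO inside the matches kept its direction and its side of the threshold under every alternative tried that has a test, as did the excess of the inside over the 2 to 5 kb flank in WT; the averaged alternatives have no test and kept both directions. Of 122 alternative values 94 stayed within the main interval or on the same side of the threshold, of which 5, all averages with no test, had the opposite sign: paired minus solitary 0.00746 in WT and 0.0198 in *Dnmt3l* KO and 5′ minus 3′ 0.00666 in WT as means of site levels, and inside minus flank -0.0154 and 5′ minus 3′ 0.0445 in *Dnmt3l* KO as means over matches. At 95% identity or more, the WT level was 0.815, WT minus *Pld6* KO 0.0246 (no longer past the threshold), paired minus solitary in *Pld6* KO 0.0310 and inside minus flank in *Dnmt3l* KO -0.00865, both with the sign turned, and 3 of 5 matches were lower by at least 0.3 in *Dnmt3l* KO. At 97% extent or more, the levels were 0.815 in WT and 0.772 in *Pld6* KO, WT minus *Pld6* KO was 0.0428 and inside minus flank in *Pld6* KO 0.00845, both no longer past the threshold, that in *Dnmt3l* KO -0.00843, and again 3 of 5 matches were lower in *Dnmt3l* KO. That extent is reached only by matches that run past the LTR end, so it left out nearly all 3′ matches. With sites of at least 3 calls, the *Dnmt3l* KO level was 0.265, its inside minus flank -0.0122, and paired minus solitary 0.00977 in the *Pld6* KO and -0.109 in the *Dnmt3l* KO, the latter past the threshold. Paired minus solitary in *Pld6* KO was 0.00512 with chromosome X, and with pairs 5 to 7 kb apart it was 0.00535 in WT, 0.0139 in the *Pld6* KO and 0.00417 in the *Dnmt3l* KO. Means over matches with at least 3 calls gave inside minus flank of 0.0406 in WT and 0.0227 in *Pld6* KO and 5′ minus 3′ of 0.0171 in WT. Matches lower by at least 0.3 numbered 14 of 126 in *Pld6* KO (4.46% of windows) and 36 of 43 in *Dnmt3l* KO (66% of windows) at 5 calls, and 10 of 177 and 33 of 41 with 200 bp added (2.22% and 67.1% of 800 bp windows). Without the paired match with the most WT calls, paired minus solitary was 0.00287 and 5′ minus 3′ 0.00387 in WT, both with the sign turned. The cause was not tested in any of these. That alternative and those for 5′ against 3′ matches were chosen after seeing the data. No pairing of libraries across genotypes was possible because each genotype has 1 library. Within a library the tests pooled calls and did not pair a match with its own flanks or a 5′ match with its 3′ match. Depth limits single matches, of which 53, 109 and 11 had 10 calls, in the order WT, *Pld6* KO, *Dnmt3l* KO.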
